A study of Mus musculus with 12 samples.

Results

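The genes described here are 10 genes of choroid plexus epithelium: Ttr, Folr1, Kl, Aqp1, Clic6, Otx2, Slc4a5, Sostdc1, Enpp2 and Igf2. They were taken by symbol from a table of 21957 usable genes, and 9 of the 10 had enough reads to be tested. Igf2 did not pass the filter on low counts and is described by its reads. RNA from brains of C57BL/6 wild-type mice aged 6 weeks was sequenced in 3 groups of 4 libraries. The groups were control brains, brains with experimental cerebral malaria (ECM), and brains of mice with ECM that received artesunate, an antimalarial drug, for 4 days (treated ECM). All groups share strain, genotype and age. Which parasite, dose and stage of disease were used was not given in the sources used here. In addition, the labels do not say whether the libraries of a group came from separate mice, so each p-value measures only the spread between these libraries.

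The choroid plexus is a tuft of fenestrated capillaries and stroma inside the brain ventricles, covered by a single epithelial layer. That epithelium secretes cerebrospinal fluid by moving ions and water from blood to ventricle, and it releases carrier proteins and growth factors into the fluid. It is a small share of brain tissue, so how much of it a dissected brain sample holds can differ from sample to sample. In these bulk libraries, fewer cells of a type and less RNA per cell cannot be told apart.

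Between 13307625 and 18838545 reads per library were assigned to genes. Mitochondrial genes took 5.95% to 11.2% of them in controls, 5.79% to 15.8% in ECM libraries and 4.96% to 5.49% in treated ones. Control 4, ECM 2 and ECM 3 had the highest shares. Levels are TMM-scaled CPM, which divides a count by the reads assigned to genes in its library and is comparable between libraries but not between genes. The listed marker genes of ependyma, of leptomeninges and stroma, of oligodendrocytes, neurons and astrocytes were all above 0 in every library. The 4 choroid plexus markers outside the 10 genes (Kcne2, Tmem72, Kcnj13 and F5) summed to 2.73 to 20.1 CPM in control, 2.97 to 6.99 CPM in ECM and 3.68 to 23.6 CPM in treated ECM. Reads of these 4 markers were thus found in every library, at levels that varied within each group. Some levels were near 0. Kcne2 had 0.0802 CPM in ECM 3, and Mfrp, another choroid plexus gene, had 0 CPM in ECM 2 and ECM 3. How much choroid plexus each library held was not tested.

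The 2 promoters below are shown because Kl and Aqp1 are members whose levels went up and down with that of Ttr, and because no annotated exon lies in these windows. They are the 250 bases before the RefSeq start site in build GRCm38.p6, at chr5:150952357-150952606 (plus strand) for Kl and chr6:55336049-55336298 (plus strand) for Aqp1. Capitals mark GGGCGG, the core of a GC box, or its reverse complement.

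Kl: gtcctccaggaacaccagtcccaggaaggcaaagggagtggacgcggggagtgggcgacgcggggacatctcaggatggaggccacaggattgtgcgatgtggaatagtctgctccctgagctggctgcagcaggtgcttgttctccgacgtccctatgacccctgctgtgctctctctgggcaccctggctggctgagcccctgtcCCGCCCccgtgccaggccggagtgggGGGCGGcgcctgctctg

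Aqp1: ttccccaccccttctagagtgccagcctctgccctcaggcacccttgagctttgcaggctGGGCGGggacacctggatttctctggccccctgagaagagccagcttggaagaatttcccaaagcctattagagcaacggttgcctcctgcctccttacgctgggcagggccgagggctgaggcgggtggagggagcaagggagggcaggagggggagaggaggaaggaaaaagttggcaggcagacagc

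The Kl window has 66.8% G and C and 2 matches to GGGCGG, and the Aqp1 window has 62% and 1 match. The median over 32851 windows of the same length was 52.4%, and 32.7% of those windows held GGGCGG on either strand. Neither window held TATAAA, the TATA box, which 12.4% of all windows held. Neither held TAATCC, a homeobox motif bound by Otx2-type proteins, which 6.25% of all windows held. RefSeq entries were found for 5 of the 10 genes (Kl, Aqp1, Slc4a5, Igf2 and Otx2) with 11 windows, of which 5 held GGGCGG, 2 held TATAAA and 1 held TAATCC. The motifs were searched on both strands, none of them contains another, and a match describes the letters only.

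Ordered per length of exon, Ttr and Enpp2 were the most abundant of the 10 genes in control brain. In RPKM, which divides CPM by the exon length in kilobases, control levels were 278 ± 225 for Ttr and 81.3 ± 18.97 for Enpp2 (SD, n = 4). Clic6 followed at 3.01 ± 1.10, Aqp1 at 1.80 ± 1.48, Sostdc1 at 1.57 ± 0.431 and Kl at 1.54 ± 0.694 RPKM. Otx2 stood at 0.883 ± 0.103, Folr1 at 0.773 ± 0.446, Slc4a5 at 0.396 ± 0.214 and Igf2 at 0.108 ± 0.0640 RPKM. The intervals of 1 SD of neighbours in this order overlapped, except between Enpp2 and Clic6 and between Slc4a5 and Igf2. Lengths are the union of all annotated exons, so genes with long untranslated or alternative exons, such as Kl, may be set too low.

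**Figure D1:**
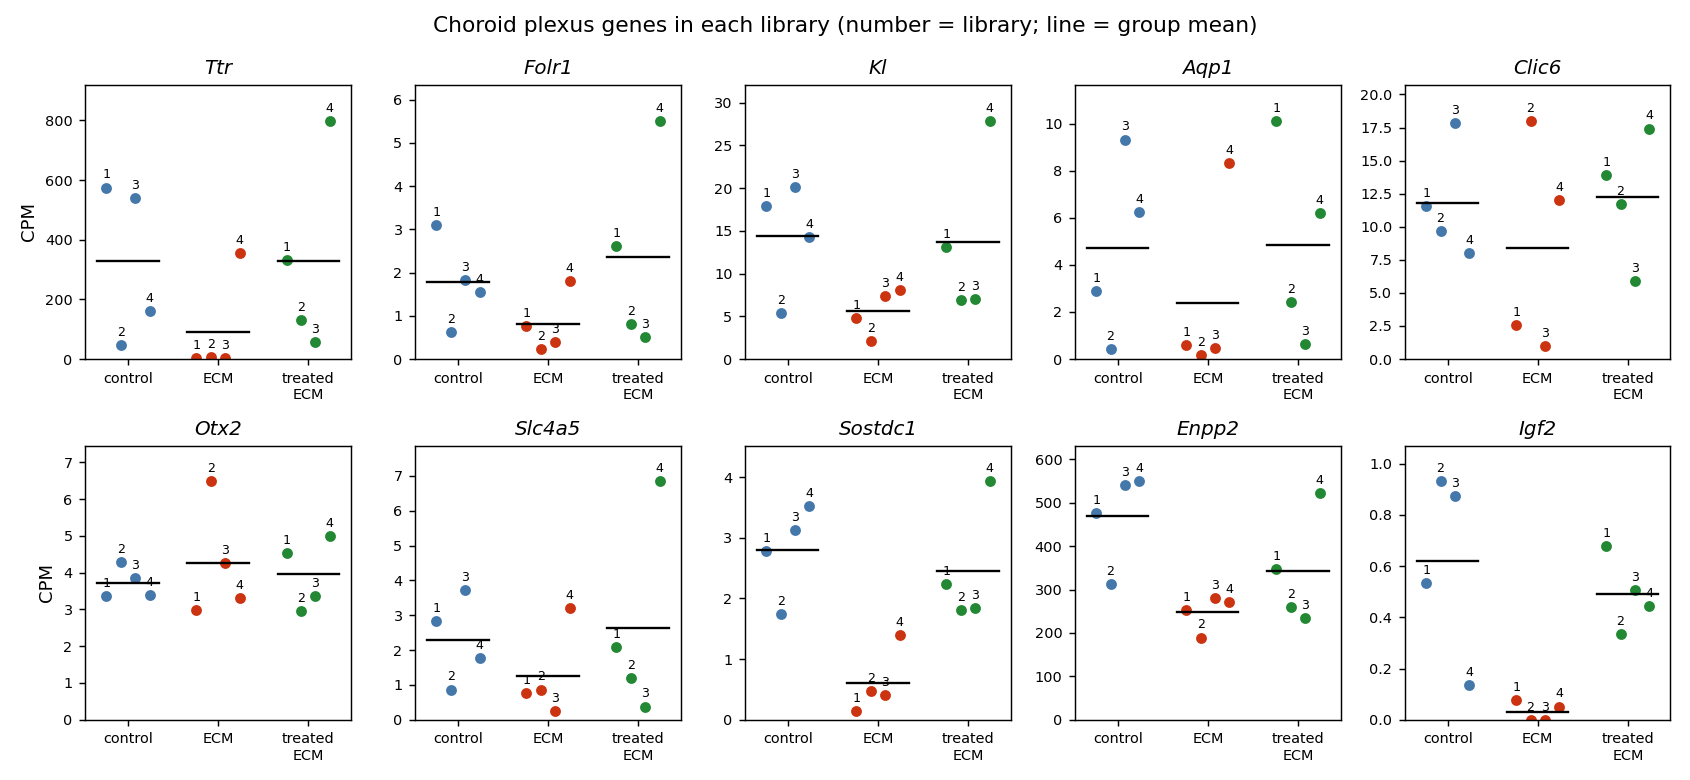
Level of each of the 10 genes in each library, in CPM on a linear axis, with 4 points per group for control, ECM and treated ECM. ECM 4 lies far above the other ECM libraries for Ttr (356 CPM against 2.25 to 6.87) and Aqp1 (8.34 CPM against 0.158 to 0.609), while for Sostdc1 and Enpp2 every ECM library lies below every control.

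Ttr encodes transthyretin, the carrier of thyroxine and retinol-binding protein in cerebrospinal fluid, and lies at chr18:20665280-20674321 (plus strand, GENCODE M21). Its level was 575, 45.9, 539 and 159 CPM in control 1 to 4. In ECM 1 to 4 it was 2.97, 6.87, 2.25 and 356 CPM, and in treated ECM 1 to 4 it was 331, 131, 58.0 and 799 CPM. ECM 1, 2 and 3 were thus below every other library, while ECM 4 was inside the control range. With all 4 libraries the difference between ECM and control was a log2 fold change of -1.84 ± 1.39 (SE, edgeR adjusted p = 0.493). Without ECM 4 it was -6.37 (edgeR adjusted p = 0.00420). That was the only 1 of 12 omissions with a call on Ttr (edgeR adjusted p up to 0.673). ECM 4 stands out by its own Ttr value, so the fit without it only describes how the result depends on that library. Treated ECM against ECM gave 1.84 ± 1.39 (edgeR adjusted p = 0.420) with ECM 4 and 6.37 (edgeR adjusted p = 0.00756) without it. That, too, was the only 1 of 12 omissions with a call (edgeR adjusted p up to 0.735). The mitochondrial share was 8.24%, 15.8% and 13.7% in ECM 1, 2 and 3 and 5.79% in ECM 4. Without the 3 libraries of highest share (control 4, ECM 2 and ECM 3), Ttr in ECM against control had a log2 fold change of -1.11 (edgeR adjusted p = 0.645). That fit kept only ECM 1 and ECM 4 of the ECM group, with 2.97 and 356 CPM. The part of the mitochondrial share in the Ttr values was not tested. The summed level of 12 cerebellum and hindbrain genes was 269, 6434, 243 and 1696 CPM in ECM 1 to 4. It ran from 491 to 3342 CPM in control and from 552 to 3006 CPM in treated ECM. ECM 1 and ECM 3 were thus lowest and ECM 2 highest for this region, while all 3 were low in Ttr. How much of each brain region a library held was not tested.

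Of 13 genes that handle thyroid hormone and retinol, 1 rose and 1 fell in ECM. For this list and those below, such counts stand beside the shares over all 14604 tested genes. In ECM against control 2.91% of these were called lower and 7.3% higher. In treated ECM against ECM 3.03% were called higher and 5.66% lower. Whether any list differed from these shares was not tested. Slco1c1, a thyroxine transporter of the blood-brain barrier, fell from 53.4 ± 4.56 to 19.7 ± 1.67 CPM (SD, n = 4 each, edgeR log2 fold change -1.44, adjusted p = 2.3e-05). It rose in treated ECM against ECM to 57.4 ± 8.53 CPM (log2 fold change 1.54, edgeR adjusted p = 0.000204). Slc16a10, a transporter of aromatic amino acids and thyroid hormone, rose from 2.77 ± 0.235 to 6.05 ± 0.267 CPM in ECM (adjusted p = 0.00192 by edgeR).

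Sostdc1 encodes a secreted antagonist of bone morphogenetic proteins (BMP) that also acts on Wnt signalling, and lies at chr12:36314139-36318452 (plus strand). It had 2.78, 1.74, 3.13 and 3.52 CPM in control 1 to 4. It had 0.152, 0.474, 0.401 and 1.40 CPM in ECM 1 to 4, and 2.24, 1.81, 1.84 and 3.93 CPM in treated ECM 1 to 4. Every ECM library was below every control and every treated library, and ECM 4 was again the highest of the ECM libraries. Sostdc1 fell in ECM against control by a log2 fold change of -2.11 ± 0.52 (SE, edgeR adjusted p = 0.0172) and rose in treated ECM against ECM by 1.93 ± 0.52 (edgeR adjusted p = 0.0355). The first call held when each of the 12 libraries was left out in turn (edgeR adjusted p up to 0.0449). It was lost without control 4, ECM 2 and ECM 3 together (log2 fold change -1.61, edgeR adjusted p = 0.106). That fit kept only ECM 1 and ECM 4 of the ECM group. The second call held without ECM 4 (2.83, adjusted p = 0.00539), control 2 or control 4 and was lost without any 1 of the other 9 libraries (adjusted p up to 0.103). The second call was also lost without control 4, ECM 2 and ECM 3 together (1.56, edgeR adjusted p = 0.109).

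Among 16 BMP and Wnt genes related to Sostdc1, 1 gene, Bmp4, fell in ECM. Bmp4, a BMP ligand, went from 2.60 ± 0.645 to 1.36 ± 0.175 CPM (SD, n = 4 each, edgeR adjusted p = 0.0395). After treatment, against ECM, 2 of the 16 rose: Bmp4, to 2.88 ± 0.435 CPM (adjusted p = 0.0244), and Lrp4, a receptor that binds Sostdc1 family proteins, from 17.1 ± 5.58 to 33.4 ± 5.80 CPM (edgeR adjusted p = 0.0212). The median log2 fold change of the 16 genes in ECM against control was -0.22, and that of all tested genes was -0.00012.

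Enpp2 encodes autotaxin, the secreted enzyme that makes lysophosphatidic acid (LPA), and lies at chr15:54838901-54952892 (minus strand). Oligodendrocytes express it as well as choroid plexus. The control libraries 1 to 4 had 476, 313, 541 and 549 CPM. The ECM libraries had 252, 190, 280 and 270 CPM, and the treated libraries had 348, 261, 235 and 523 CPM. Every ECM library was below every control, whereas the treated libraries overlapped both groups. Enpp2 fell in ECM by a log2 fold change of -0.92 ± 0.26 (SE, edgeR adjusted p = 0.0376). The call was lost, with adjusted p up to 0.0992, when control 1, 3 or 4, ECM 1, 2 or 4 or treated ECM 1 was left out. Treated ECM against ECM gave 0.46 (adjusted p = 0.272 by edgeR). A non-coding gene, Gm26684, lies on the opposite strand and its reads cannot be separated here.

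Beside Enpp2, 2 of 12 myelinating oligodendrocyte genes fell in ECM and 1 rose. Ugt8a, an enzyme of myelin lipid synthesis, fell from 113 ± 23.2 to 34.03 ± 5.92 CPM (edgeR adjusted p = 3.88e-05), and Opalin fell (adjusted p = 0.0187). Mobp, a myelin protein, rose from 520 ± 157 to 961 ± 201 CPM (edgeR adjusted p = 0.0209). The summed level of the 12 genes was 6472 to 12175 CPM in control and 6920 to 8477 CPM in ECM, and its part in the Enpp2 values was not tested. Of 8 genes of LPA synthesis and reception outside Enpp2, 1 fell in ECM: Lpar1, an LPA receptor, went from 51.4 ± 9.23 to 22.5 ± 6.09 CPM (adjusted p = 0.0017). Lpar1 rose again in treated ECM against ECM to 43.6 ± 6.75 CPM (edgeR adjusted p = 0.0131).

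Igf2 encodes a secreted growth factor of choroid plexus and leptomeninges and lies at chr7:142650766-142666816 (minus strand). It had 39 reads in the 4 control libraries together, 2 in ECM and 33 in treated ECM. In CPM, control 1 to 4 had 0.535, 0.931, 0.874 and 0.136, ECM 1 to 4 had 0.0762, 0, 0 and 0.0518, and the treated libraries had 0.678, 0.336, 0.508 and 0.444. Igf2 was nearly unread in ECM and read in every library of the other groups. The control level was 17.7 times the ECM level (95% exact interval 4.59 to 152, counting error only), and the treated level was 14.5 times it (3.70 to 125). Without the filter on low counts, edgeR gave a log2 fold change of -3.91 (adjusted p = 0.00649) in ECM against control and 3.59 (adjusted p = 0.0197) in treated ECM against ECM. Igf2 overlaps the annotated genes Gm49394 (same strand) and Igf2os (opposite strand), whose reads could not be told apart.

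Of 23 leptomeningeal and stromal genes tested, 5 fell in ECM and 2 rose. Col14a1, a collagen, fell from 1.67 ± 0.598 to 0.335 ± 0.289 CPM (edgeR adjusted p = 0.00634) and Lum, a matrix proteoglycan, from 4.56 ± 0.277 to 1.63 ± 0.759 CPM (adjusted p = 0.00644). Slc22a6, an organic anion transporter, fell from 5.78 ± 1.10 to 2.06 ± 0.802 CPM (adjusted p = 0.00859) and Gjb2, a connexin, rose from 9.57 ± 1.89 to 25.5 ± 7.62 CPM (edgeR adjusted p = 0.00188). The summed level of this list was 643 to 1072 CPM in control and 1078 to 1589 CPM in ECM, a sum carried by Ptgds, with a mean of 602 CPM in control and 1017 CPM in ECM. Without Ptgds the sums overlapped, at 287 to 342 CPM in control and 308 to 402 CPM in ECM. The part of stroma in the Igf2 values was not tested. Among 12 genes of the insulin-like growth factor pathway outside Igf2, 3 binding protein genes rose in ECM (Igfbp7, Igfbp4 and Igfbp3) and 1 fell (Igfbp5). Igfbp7 rose from 25.1 ± 3.37 to 64.4 ± 26.9 CPM (adjusted p = 0.00308), and Igfbp5 fell from 182 ± 8.39 to 119 ± 9.76 CPM (edgeR adjusted p = 0.00712).

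Kl encodes klotho, the co-receptor that lets FGF23 bind its receptors, and lies at chr5:150952607-150993817 (plus strand). It had 17.9, 5.40, 20.1 and 14.2 CPM in control 1 to 4, 4.80, 2.13, 7.38 and 8.03 CPM in ECM, and 13.2, 6.85, 7.05 and 27.9 CPM in treated ECM. ECM and control overlapped through control 2, which had less Kl than ECM 3 and ECM 4. The log2 fold change was -1.36 ± 0.53 (SE, edgeR adjusted p = 0.137) in ECM against control and 1.29 (adjusted p = 0.142) in treated ECM against ECM. Of 5 tested klotho and FGF receptor genes outside Kl, Fgfr2 fell in ECM, from 63.8 ± 8.85 to 40.9 ± 9.11 CPM (edgeR adjusted p = 0.0363).

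Aqp1, the water channel of the epithelium's ventricular face, lies at chr6:55336432-55348555 (plus strand). It had 2.89, 0.434, 9.32 and 6.24 CPM in control 1 to 4, 0.609, 0.158, 0.481 and 8.34 CPM in ECM, and 10.1, 2.42, 0.635 and 6.21 CPM in treated ECM. The range within controls was 21.5-fold and within ECM 52.8-fold, and all 3 groups overlapped. The log2 fold change in ECM against control was -0.91 ± 1.07 (SE, edgeR adjusted p = 0.689).

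The other 3 transport genes also overlapped between the groups. Slc4a5, a sodium bicarbonate cotransporter (chr6:83219828-83304945, plus strand), ranged over 0.869 to 3.72 CPM in control, 0.241 to 3.21 in ECM and 0.381 to 6.84 in treated ECM. Clic6, of the chloride intracellular channel family (chr16:92485736-92541243, plus strand), ranged over 7.999 to 17.8 CPM in control and 5.90 to 17.4 in treated ECM, but over 0.962 to 18.0 CPM in ECM. ECM 3 was its lowest library and ECM 2 its highest. Folr1, the folate receptor that carries folate into cerebrospinal fluid (chr7:101858331-101870788, minus strand), ranged over 0.621 to 3.11 CPM in control, 0.237 to 1.81 in ECM and 0.508 to 5.51 in treated ECM. Their log2 fold changes in ECM against control were -0.79 for Slc4a5, -0.48 for Clic6 and -1.08 for Folr1 (edgeR adjusted p = 0.639, 0.730 and 0.460).

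Of 12 genes of aquaporins and ion transport into cerebrospinal fluid outside the 10, 1 fell and 2 rose in ECM. Car2, a carbonic anhydrase, fell from 241 ± 38.8 to 106 ± 15.3 CPM (edgeR adjusted p = 0.000364) and rose in treated ECM against ECM to 208 ± 34.6 CPM (adjusted p = 0.0045). Clic1 and Clic4, relatives of Clic6, rose in ECM (adjusted p = 0.00461 and 0.0356 by edgeR). Of 12 folate genes, Aldh1l1, an enzyme of folate use in astrocytes, rose in ECM from 61.5 ± 14.6 to 138 ± 26.3 CPM (edgeR adjusted p = 0.00138) and fell in treated ECM to 84.1 ± 7.26 CPM (adjusted p = 0.0391). The folate transporter Slc46a1 rose in treated ECM against ECM from 6.84 ± 1.502 to 14.4 ± 1.14 CPM (adjusted p = 0.0115).

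Otx2, the homeobox transcription factor of forebrain, midbrain and choroid plexus development (chr14:48657677-48673819, minus strand), had the smallest spread within groups of the 9 tested genes. It had 3.37, 4.28, 3.86 and 3.39 CPM in control, 2.97, 6.48, 4.25 and 3.31 CPM in ECM, and 4.54, 2.96, 3.36 and 5.01 CPM in treated ECM. ECM 2 was its highest library, and that library also had the highest sum of cerebellum and hindbrain genes. The log2 fold change in ECM against control was 0.19 ± 0.28 (SE, edgeR adjusted p = 0.766). The annotated genes Otx2os1 and Gm49154 overlap it, so their reads could not be told apart.

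In ECM against control, 2 of the 9 tested genes fell (Sostdc1 and Enpp2). Of all 14604 tested genes, 2.91% were called lower and 7.3% higher. The members were chosen with earlier results of these data known, so the shares in this paragraph are no test of the set. The median log2 fold change of the 9 was -0.92. Every ECM library was below every control for 2 of the 9 (Sostdc1 and Enpp2), against 5.3% of 13772 tested genes compared in all 12 libraries. Igf2, outside the tested genes, also did not overlap, but its lowest control (control 4) had 2 reads and ECM 1 had 1. In treated ECM against ECM, 1 of the 9 rose (Sostdc1), against 3.03% of all genes called higher and 5.66% called lower, and the median of the 9 was 0.99. Every treated library was above every ECM library for 1 of the 9 (Sostdc1), against 10.4% of genes, a share near the background. The same held for Igf2 outside the tested genes. Without ECM 4, Ttr was called beside Sostdc1 in both comparisons, while Enpp2 was not called in ECM against control (edgeR adjusted p = 0.0576). Igf2 passed the filter in that fit and was called there too, as it was with ECM 4 kept and no filter. It passed only through control and treated libraries, since ECM 1, 2 and 3 had 1, 0 and 0 reads. The call without ECM 4 is therefore no separate support for lower Igf2 in ECM. Of all genes, 2.66% were then called lower in ECM and 5.49% higher in treated ECM. The 2 comparisons share the ECM libraries, so their values are not independent.

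Genes of red blood cells and of striatum moved in the same directions as Sostdc1. Of 4 tested erythroid genes, 3 fell in ECM and 3 rose in treated ECM against ECM, and the 5 genes of the list summed to 11.05 to 45.3 CPM in control, 0 to 0.762 CPM in ECM and 13.6 to 82.2 CPM in treated ECM. The erythroid sums of ECM did not overlap those of either other group. Of 9 striatum genes, 4 fell in ECM (median log2 fold change of the 9 genes -0.87) and 3 rose in treated ECM against ECM. Drd2, a dopamine receptor, fell from 35.4 ± 6.49 to 12.4 ± 3.15 CPM in ECM (SD, n = 4 each, edgeR adjusted p = 0.00025) and rose to 32.3 ± 4.08 CPM in treated ECM (adjusted p = 0.00205). The striatum list summed to 896 to 1404 CPM in control, 345 to 1177 CPM in ECM and 1037 to 1277 CPM in treated ECM, so the groups overlapped. The part of blood or of brain region in the values of the 10 genes was not tested.

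In treated ECM against control, 0 of 9 genes were called by edgeR, 0 had an unadjusted p under 0.05, and DESeq2 and limma voom called 0. Of all genes, 2.02% were called in either direction. The log2 fold changes ran from -0.46 for Enpp2 (adjusted p = 0.490) to 0.40 for Folr1 (adjusted p = 0.803 by edgeR). Ttr had a log2 fold change of 0.00039 with an SE of 1.34, so its difference is known only loosely from these libraries. Among the 203 tested genes of the other lists, edgeR called 0 in this comparison, DESeq2 called 2 and limma voom 9, and 18 had an unadjusted p under 0.05. Of all genes, DESeq2 called 2.67% higher and 0.147% lower in this comparison, and limma voom 6.58% higher and 2.66% lower.

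**Figure D2:**
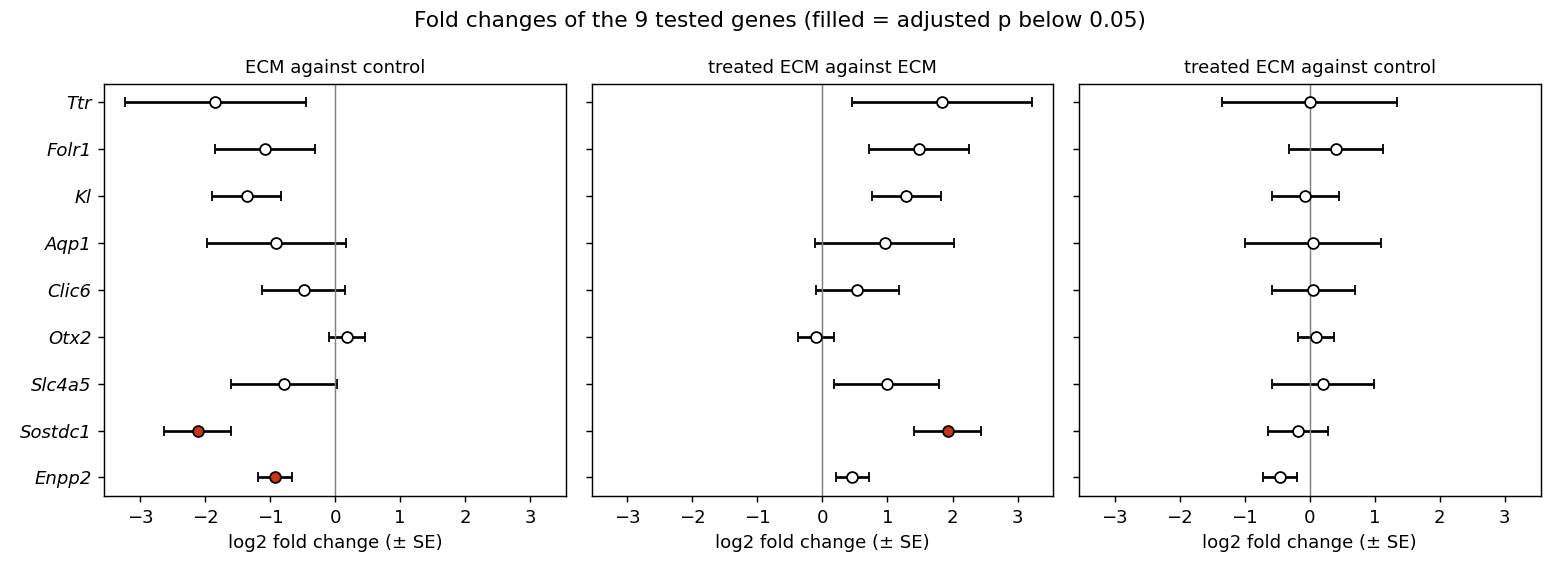
Log2 fold change of each tested gene with its standard error, for each of the 3 comparisons between groups. Sostdc1 lies at -2.11 and 1.93 in the first pair of comparisons with an SE of 0.52 each, whereas Ttr has an SE of 1.39.

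The authors' deposited table of ECM against control listed 3 of the 10 genes, all lower: Igf2 (log2 fold change -4.17, adjusted p = 0.0175), Kl (-1.37, 0.0376) and Sostdc1 (-2.17, 0.00312). The authors' deposited table of treated ECM against ECM listed Igf2 (3.84, 0.0181), Sostdc1 (1.97, 0.0087), Folr1 (1.54, 0.155) and Kl (1.299, 0.0509). The authors' deposited table of treated ECM against control held none of the 10. These tables hold only genes with a log2 fold change of at least 1 in size and an unadjusted p under 0.05.

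The spread between libraries of 1 group was large for 6 of the 9 tested genes. The SD of log2 CPM within groups was 2.37 for Ttr, 1.87 for Aqp1, 1.28 for Slc4a5, 1.19 for Clic6, 1.14 for Folr1 and 0.88 for Kl. The median over 13772 genes was 0.35. Ttr ranked 26 and Aqp1 50 from the widest spread, and Kl ranked 618. Sostdc1 had an SD of 0.69, Enpp2 0.40 and Otx2 0.36, the last near the median gene. The spread was wide in every group: the highest over the lowest library for Ttr was 12.5 in control, 158 in ECM and 13.8 in treated ECM, where the median gene gave 1.68, 1.92 and 1.26. Control 2 was lowest of the controls for Ttr, Folr1, Kl, Aqp1, Slc4a5, Sostdc1 and Enpp2, and treated ECM 4 was above every control for 6 of the 10 genes.

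**Figure D3:**
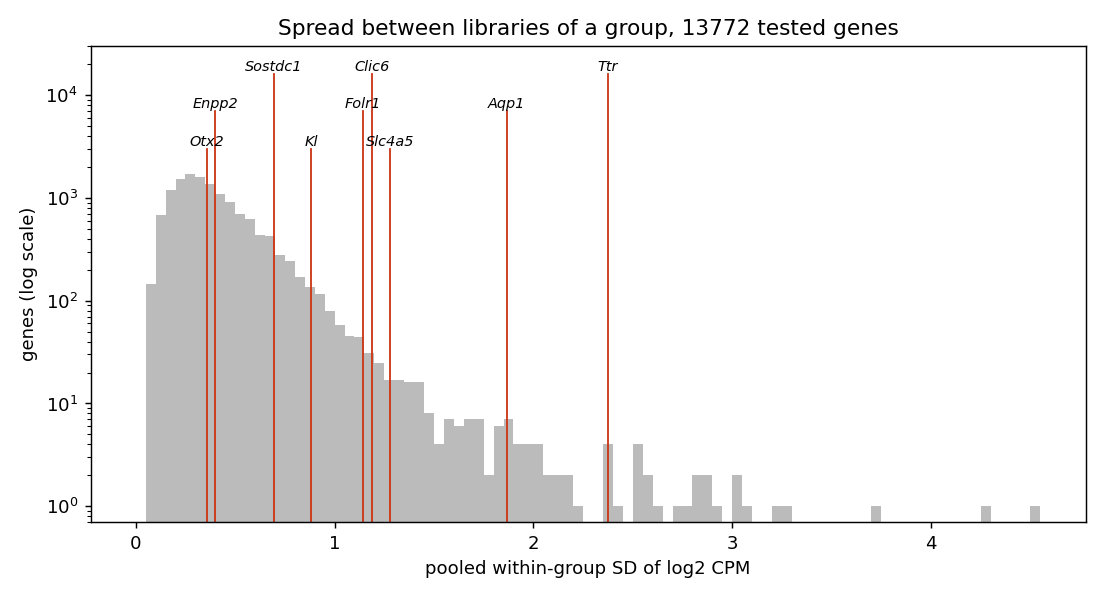
Distribution over 13772 genes of the within-group SD of log2 CPM, with the 9 tested genes marked. Ttr (2.37) and Aqp1 (1.87) lie at the far right, and Otx2 (0.36) lies at the median of all genes (0.35).

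ECM 4 stood apart from the other ECM libraries in some of the genes and not in others. As a share of the control mean, ECM 4 had 108% for Ttr, 177% for Aqp1, 140% for Slc4a5, 102% for Folr1 and 102% for Clic6. It had 55.7% for Kl, 57.6% for Enpp2, 50.03% for Sostdc1 and 8.37% for Igf2. The mean of ECM 1 to 3 was 1.22% of control for Ttr, 8.82% for Aqp1, 26.3% for Folr1 and 27.2% for Slc4a5. ECM 4 was within the control range for Ttr, Folr1, Kl, Aqp1, Clic6 and Slc4a5, and below the lowest control for Sostdc1, Enpp2, Otx2 and Igf2. Of 30 choroid plexus genes outside the 10, ECM 4 was above the control mean for 14 and below the lowest control for 7. Its share of the control mean had a median of 84.4% and ran from 22.6% for Kcne2, a potassium channel subunit, to 305% for Trpv4, a cation channel. ECM 1, 2 and 3 were below the lowest control in 8, 7 and 7 of the 10 genes, and ECM 4 in 4.

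**Figure D4:**
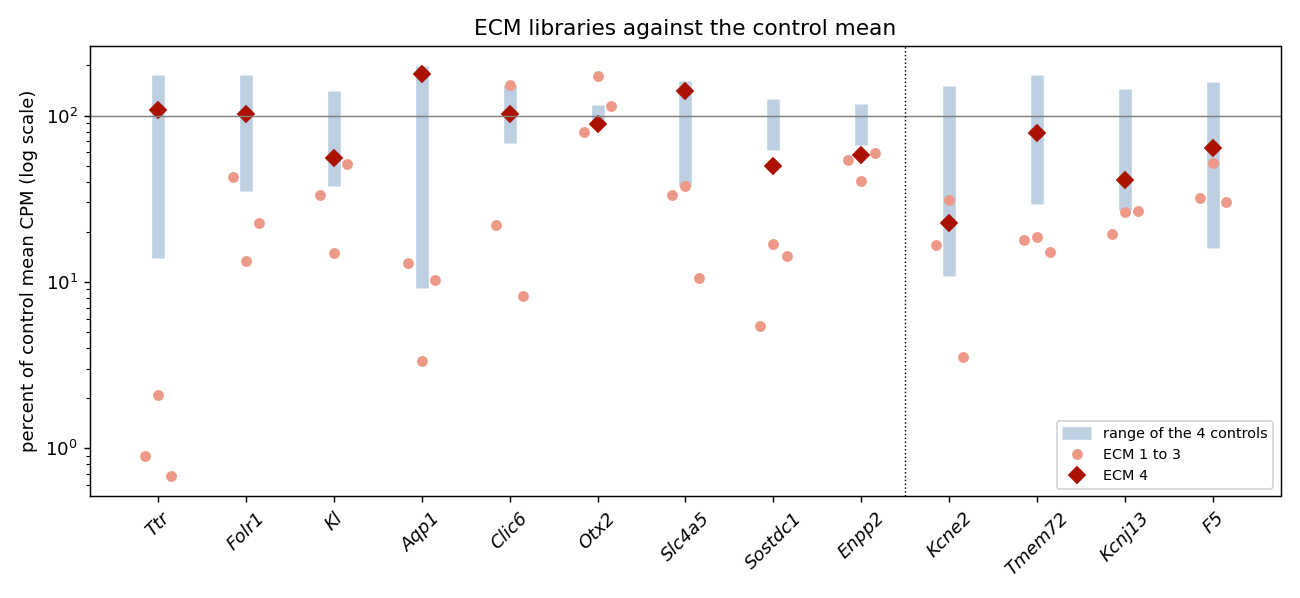
Level of each of the 9 tested genes in each ECM library as a share of the control mean, on a log axis in percent. Kcne2, Tmem72, Kcnj13 and F5 are added at the right, and bars give the range of the 4 controls. ECM 4 lies at 108% for Ttr and 177% for Aqp1 but at 50.03% for Sostdc1 and 57.6% for Enpp2. For Ttr, the points of ECM 1 to 3 have a mean of 1.22%.

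Among 30 tested choroid plexus genes outside the 10, 2 fell and 1 rose in ECM against control. Of all tested genes, 2.91% were called lower and 7.3% higher, and the difference from these shares was not tested. Kcnj13, a potassium channel, fell from 3.91 ± 2.02 to 1.11 ± 0.355 CPM (edgeR adjusted p = 0.043), and Slc13a4, a sulfate transporter, from 14.1 ± 1.91 to 7.68 ± 1.68 CPM (adjusted p = 0.0323). Trpv4, a cation channel, rose from 1.92 ± 1.10 to 4.93 ± 1.74 CPM (edgeR adjusted p = 0.0473). The median of the 30 was -0.41. Treated ECM against ECM gave 1 call: Msx1, a homeobox gene of the roof plate and choroid plexus, which rose from 1.32 ± 0.497 to 3.81 ± 0.449 CPM (edgeR adjusted p = 0.0264). Of 17 ependymal and cilia genes, Hydin, a protein of motile cilia, fell in ECM from 4.46 ± 1.08 to 1.99 ± 0.716 CPM (adjusted p = 0.0327). Of 10 endothelial genes, 5 rose and 1 fell in ECM. Slc22a8, an organic anion transporter of brain endothelium and choroid plexus, fell from 16.8 ± 2.13 to 3.43 ± 0.466 CPM (edgeR adjusted p = 1.72e-05), and Cdh5, an endothelial cadherin, rose from 15.3 ± 2.39 to 52.4 ± 9.86 CPM (adjusted p = 2.29e-05). The summed level of the ependymal and cilia list was 44.3 to 55.9 CPM in control and 39.9 to 53.9 CPM in ECM. With the mean of the 30 genes as a covariate, the log2 fold change in ECM against control was -1.70 for Sostdc1 (edgeR adjusted p = 0.0431) and -0.56 for Enpp2 (adjusted p = 0.200). The 30 genes did not all go up and down with Ttr. Among those with a mean of at least 1 CPM, Pearson's r with Ttr ran from -0.58 for Mdfic to 0.95 for Mfrp. Their mean is therefore not a direct measure of choroid plexus content.

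Likeness to Ttr over the 12 libraries, in log2 CPM, differed among the other 9 genes. Pearson's r with Ttr was 0.91 for Sostdc1, 0.85 for Slc4a5, 0.84 for Aqp1, 0.84 for Folr1, 0.78 for Kl, 0.74 for Clic6, 0.68 for Enpp2 and 0.64 for Igf2, and -0.12 for Otx2. ECM 1 to 3 stand far below the rest in Ttr, so these values describe likeness only and were not tested. Without ECM 1 and ECM 3, r was 0.82 for Sostdc1, 0.94 for Folr1 and 0.93 for Kl, 0.89 for Aqp1, 0.81 for Slc4a5 and 0.76 for Enpp2, but 0.42 for Igf2, 0.18 for Clic6 and -0.42 for Otx2. Within groups, on deviations from the group means, r was 0.52 to 0.88 for 7 genes, with Slc4a5 highest and Enpp2 lowest, but 0.096 for Igf2 and -0.032 for Otx2. The 0.64 of Igf2 thus rests on the difference between the groups. Of 13159 genes with a mean of at least 1 CPM, the 10 most like Ttr outside the set were Mfrp, Dvl3, Kank3, Tmem72, Inpp5j, Gins3, Mdc1, Lzic, Ryr1 and Tgfb3 (r from 0.95 to 0.86). Mfrp and Tmem72 are choroid plexus genes. By Spearman's rank, 3 of these 10 stayed among the 10 most alike (Mfrp, Tmem72 and Tgfb3). Kcnj13, Cldn2, Kcne2, Tctn1, B3galt4, Phf21b and Ccdc167 joined them. On deviations from the group means, 3 of the 10 stayed (Mfrp, Tmem72 and Dvl3). Without ECM 1 and ECM 3, 2 stayed (Mfrp and Tmem72). The listed choroid plexus genes outside the set did not all resemble Ttr, with r from 0.95 for Mfrp to -0.58 for Mdfic.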

How the data were processed

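Per the submitters' processing notes, the authors' tools were FastQC and Trimmomatic for the reads, then STAR and HTSeq, with build mm10. Which versions and annotation they used was not given in the sources used here. Deposited read counts cover 21983 genes, of which 26 names had turned into dates and were dropped. The authors' deposited tables also give a log2 fold change, a p-value, a normalized signal and an FPKM for each gene. How the authors tested, and with which gene lengths, was not given in the sources used here. Neither the signal nor the FPKM entered a test. In 2212 genes with names of 8 or more characters, values had been displaced in the count table and were put back. Of these genes' values that could be compared with the deposited tables, 109 differed, all in treated ECM 4, so these genes were fitted with 11 libraries, which departs from the planned fit. None of the 10 genes is among them.

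After TMM scaling and filterByExpr, edgeR's quasi-likelihood test (edgeR 4.0.16, R 4.3.3) was run in 1 model with 3 contrasts. Benjamini-Hochberg adjustment ran over 14604 genes, and a gene was called below 0.05. Log2 CPM used a prior count of 2, and RPKM used exon lengths of GENCODE M21. Alternatives were DESeq2 1.42.0, limma 3.58.1 voom with sample weights, other size factors, no filter, the groups compared alone, a covariate, a replicate block and libraries left out. The scripts were tested on simulated data. Named genes are all 10 members and, of each list, up to 4 per comparison in order of adjusted p. The members and lists were chosen with earlier results of these data known. Figures were drawn with matplotlib 3.10.9 from tables made with pandas 2.3.3.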

Additional observations from a re-analysis of the deposited data

Results flagged for a closer look

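Each of the 10 genes was checked in CPM for a library far from the other 3 of its group, in 30 groups of 4 libraries. Chance marks about 1 group in 20 if values are normally distributed, which was not tested for CPM. Ttr was marked in ECM, because ECM 4 had 356 CPM and the others 2.25 to 6.87 CPM. Aqp1 was also marked in ECM, because ECM 4 had 8.34 CPM and the others 0.158 to 0.609 CPM. The number of marked groups is near what that rate gives for 30 groups. Ttr and Aqp1 went up and down together (Pearson's r = 0.84), so their marks are not separate results.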

How the results depend on the processing

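With 4 libraries per group and a spread as wide as that of Ttr and Aqp1, only large differences could be called, and genes under 1 CPM such as Igf2 rest on few reads. Against 2 of the 9 genes called in ECM against control, 1 was called with the choroid covariate (Sostdc1). Without control 4, ECM 2 and ECM 3 together, 0 of the 9 were called, while Igf2, outside the 9, passed the filter and was called. Of all genes, 1.51% were called lower with the covariate and 7.85% without those 3 libraries. Limma voom with sample weights called 4 of the 9 (Clic6, Enpp2, Sostdc1 and Ttr). Limma voom called 11.8% of all genes lower and 14% higher, against 2.91% and 7.3% by edgeR. Its sample weights were 3.198 for ECM 1 but 0.141, 0.253 and 0.498 for ECM 2, ECM 3 and ECM 4. Leaving out 1 library gave 1 to 3 with Igf2 counted where it passed the filter, and 1 to 2 of the 9. Of all genes, 1.7% to 3.74% were then called lower. Sostdc1 alone of the 9 was left without control 1, control 3, control 4, ECM 1, ECM 2 or treated ECM 1. Against 1 called in treated ECM against ECM, 0 were called with only the groups compared and 0 with the covariate. Without control 4, ECM 2 and ECM 3 together, 0 of the 9 were called, and Igf2 was. Of all genes, these settings called 2.67%, 0.904% and 7.02% higher, in that order. In the same comparison 2 were called without the filter on low counts, 2 by DESeq2 (in both, Igf2 and Sostdc1) and 3 by limma voom. Without the filter, 2.24% of all genes were called higher. Of all genes, limma voom called 16.1% higher and 17.9% lower there and DESeq2 4.99% and 8.55%, against 3.03% and 5.66% by edgeR. Leaving out 1 library gave 0 to 3 with Igf2 counted where it passed, with 1.25% to 5.5% of all genes called higher. Of the 9, it gave 0 in 9 of 12 omissions, Sostdc1 without control 2 or control 4, and Sostdc1 and Ttr without ECM 4. The cause of these shifts was not tested. In treated ECM against control every setting run called 0.

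The replicate numbers do not pair the libraries by the labels, and 3 of 12 same-number pairs had a correlation over 0.1 (-0.61 to 0.30). Each library correlated best with its own number in 3 of 24 combinations. The fit with the replicate block called 3 in ECM against control (adding Kl, edgeR adjusted p = 0.0463), 1 in treated ECM against ECM and 0 in treated ECM against control. Of all genes, that fit called 1.36% lower in ECM against control and 1.05% higher in treated ECM against ECM. The block changed the sign in treated ECM against control for Ttr (-0.87), Clic6 (-0.16) and Slc4a5 (-0.41).

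Signs also changed for differences that the main edgeR fit did not call, given here as log2 fold changes. Among them, limma voom called Clic6 in ECM against control (-1.85, limma voom adjusted p = 0.0204). It also called Clic6 in treated ECM against ECM (1.80, limma voom adjusted p = 0.0166). With the covariate, ECM against control was 0.084 for Folr1, 0.078 for Aqp1, 0.025 for Clic6 and 0.39 for Slc4a5. Treated ECM against ECM was then -0.085 for Folr1, -0.28 for Aqp1, -0.030 for Clic6 and -0.68 for Slc4a5. Treated ECM against control was then -0.092 for Ttr, -0.0010 for Folr1, -0.20 for Aqp1, -0.0055 for Clic6 and -0.29 for Slc4a5. By limma voom, Otx2 was -0.22 in ECM against control, 0.20 in treated ECM against ECM and -0.015 in treated ECM against control. That comparison also gave -0.52 for Ttr, -0.35 for Folr1, -0.052 for Clic6 and -0.45 for Slc4a5. Without control 4, ECM 2 and ECM 3, ECM against control was 0.15 for Aqp1 and -0.29 for Otx2, treated ECM against ECM was 0.34 for Otx2, and treated ECM against control was -0.22 for Ttr and -0.082 for Clic6. For Ttr this last comparison was -0.0030 with DESeq2 size factors, -0.0037 with only the groups compared and -0.0033 by DESeq2. Leaving out 1 library gave -0.087 to 0.32 for Otx2 in ECM against control. In treated ECM against ECM it gave -0.23 to 0.18 for Otx2 and -0.070 to 2.07 for Slc4a5. In treated ECM against control the ranges were -0.92 to 0.41 for Ttr, -0.42 to 0.82 for Folr1, -0.67 to 0.16 for Kl and -0.61 to 0.61 for Aqp1. They were -0.16 to 0.33 for Clic6, -0.039 to 0.21 for Otx2 and -0.88 to 0.56 for Slc4a5.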
